A study of Mus musculus with 8 samples.

Results

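The transcripts of 10 genes of the β-catenin pathway were followed in cultured mouse myeloid cells with and without the conditional deletion of PARP1 or PARP2. The genes were Ctnnb1, Axin1, Axin2, Apc, Gsk3b, Tcf7l1, Tcf7l2, Lef1, Bcl9 and Lrp6, chosen by symbol among the 24062 genes of the count table, because the study links the loss of PARP2 to β-catenin. All 10 were found, and 9 of them were among the 13197 genes with enough counts to be tested. Tcf7l1, with 3 to 7 counts per library, was not.

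Immature myeloid cells (IMCs) were grown from the bone marrow of 2-month-old C57BL/6 mice during 3 days with 40 ng/mL of M-CSF, the growth factor of the monocyte and macrophage lineage. The 4 groups of 2 libraries each were PARP1 WT (PARP1 flox/flox, without Cre), PARP1CKO (PARP1 flox/flox with lysozyme-Cre), PARP2 WT (PARP2 flox/flox, without Cre) and PARP2CKO (PARP2 flox/flox with lysozyme-Cre). Floxed alleles were thus carried by every group, and the WT mice were littermate controls without the Cre, so an effect of Cre itself cannot be told apart from that of the deletion. Lysozyme-Cre acts in cells that express lysozyme, and cells of other lineages in the culture would keep the floxed gene.

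Total RNA was sequenced, and the values are counts of reads per gene, with 37852450 to 61845125 counts per library. Levels are given as CPM, the counts of a gene per 1000000 counts of the library, scaled for library composition by the TMM method. Parp1 fell from 206 CPM ± 6.18 (SD, n = 2) in PARP1 WT to 61.2 ± 2.91 in PARP1CKO, with an adjusted p of 0.0134 from edgeR's quasi-likelihood test. Parp2 fell from 48.2 ± 0.105 in PARP2 WT to 25.7 ± 0.0779 in PARP2CKO (adjusted p = 0.000139, the same test). It was also higher in PARP2 WT than in PARP1 WT (log2 fold change 0.27, adjusted p = 0.0159, the same test). In the PARP2 line Parp1 had 251 and 155 CPM in PARP2 WT against 263 and 264 in PARP2CKO. Myeloid markers were abundant in all groups, with group means of 889 to 995 CPM for Itgam (CD11b) and 1193 to 1264 CPM for Csf1r, the M-CSF receptor. The macrophage marker Emr1 (F4/80) was also present, at 515 to 612 CPM. The series describes biological duplicates, and no label says how many animals or cultures stood behind a library, so p-values measure the spread between these libraries.

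β-catenin, the product of Ctnnb1, is held at a low level by a complex of the scaffolds Axin1, Axin2 and Apc with the kinase Gsk3b, which marks it for destruction. When a Wnt ligand binds a Frizzled receptor together with the co-receptor Lrp6, the complex is inhibited, and β-catenin enters the nucleus, where it joins the DNA-binding factors Lef1, Tcf7, Tcf7l1 and Tcf7l2 and recruits co-activators through Bcl9. Most of this control acts on the protein, whose amount was not measured in these libraries. Axin2 and Lef1 are also transcribed in response to β-catenin in many tissues and are often read as its targets.

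To show what the TCF/LEF factors could meet near the start sites of these genes, the promoter windows of RefSeq (GRCm38.p6, the build of the files, 250 bases before to 50 bases after a start site) were searched on both strands for the 4 forms CTTTGAA or CTTTGAT or CTTTGTA or CTTTGTT. Entries were matched by symbol for 7 of the 10 genes, Ctnnb1, Axin2, Gsk3b, Tcf7l1, Tcf7l2, Lef1 and Bcl9. At least 1 form was found in 16.9% of all 32851 promoter windows. Among the windows of the 7 genes it was found in 1 of the 2 of Tcf7l2 and in 1 of the 4 of Lef1. Both of these windows lie at start sites inside the gene, 153501 and 45823 bases downstream of the gene's first base in GENCODE M21, and neither holds exon bases. The nearest transcript start of GENCODE M21 is 189 bases from the Tcf7l2 start site and 42438 bases from that of Lef1, so GENCODE M21 has no transcript start near the Lef1 window. They are shown with the matched letters in capitals, beside the only window of Axin2, the usual target gene of the pathway, which holds none of the 4 forms. The Tcf7l2 window is chr19:55895071-55895370 on the plus strand, with its match 14 bases before the start site. The Lef1 window is chr3:131156044-131156343 on the plus strand, with its match, on the minus strand, beginning 147 bases before the start site. The Axin2 window is chr11:108920099-108920398 on the plus strand. A match is a description of letters, and no binding was measured here. The absence of a match holds only for the window, and sequence outside the windows was not searched.
Tcf7l2: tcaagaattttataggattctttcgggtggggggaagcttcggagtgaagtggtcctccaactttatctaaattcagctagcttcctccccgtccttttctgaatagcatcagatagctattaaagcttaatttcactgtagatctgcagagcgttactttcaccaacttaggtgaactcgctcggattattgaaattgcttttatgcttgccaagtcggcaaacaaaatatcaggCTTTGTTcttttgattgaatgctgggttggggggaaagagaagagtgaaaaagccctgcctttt
Lef1: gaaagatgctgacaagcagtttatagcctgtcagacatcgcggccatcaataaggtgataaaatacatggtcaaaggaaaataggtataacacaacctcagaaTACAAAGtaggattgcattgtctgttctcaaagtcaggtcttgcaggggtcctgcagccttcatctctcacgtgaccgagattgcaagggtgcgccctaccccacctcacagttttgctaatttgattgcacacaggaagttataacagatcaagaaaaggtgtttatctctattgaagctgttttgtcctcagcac
Axin2: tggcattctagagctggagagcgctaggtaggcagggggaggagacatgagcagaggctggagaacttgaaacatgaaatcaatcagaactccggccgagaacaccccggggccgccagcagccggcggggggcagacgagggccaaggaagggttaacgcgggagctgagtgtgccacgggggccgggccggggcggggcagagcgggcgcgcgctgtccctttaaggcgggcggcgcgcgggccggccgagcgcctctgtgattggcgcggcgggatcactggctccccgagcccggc

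Between genes, levels were compared per kilobase of exon, with exon lengths of GENCODE M21. Ctnnb1 was the most abundant of the 10 transcripts, and the 3 least abundant, Lef1, Tcf7l1 and Axin2, were close to the limit of detection. Over the 8 libraries the mean level was 86.6 CPM per kb for Ctnnb1, 16.4 for Axin1, 12.4 for Gsk3b, 7.56 for Lrp6, 5.89 for Apc, 2.81 for Bcl9 and 1.44 for Tcf7l2. Each of these genes lay above the next in the order without overlap of the 8 libraries. Lef1 had 0.0365 CPM per kb, Tcf7l1 0.0284 and Axin2 0.0276, and the libraries of these 3 overlapped. The step from Tcf7l2 to Lef1 was 39.5-fold, the widest in the order, so that Tcf7l2 was the only TCF/LEF factor among the 10 genes above 1 CPM.

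**Figure D1:**
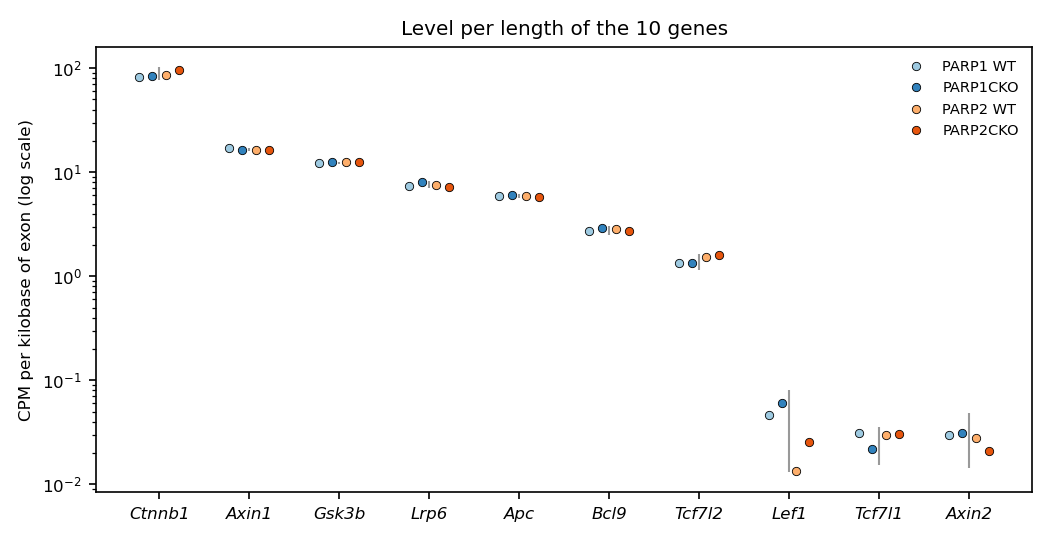
Level of each gene per kilobase of exon, on a log axis, with a point for the mean of each group and a grey line from the lowest to the highest of the 8 libraries. The 7 genes on the left lie between 86.6 and 1.44 CPM per kb on average, and the 3 on the right are below 0.1 CPM per kb and overlap.

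Ctnnb1 lies on chromosome 9 from 120929216 to 120960507. It had 459 and 396 CPM in PARP1 WT against 444 and 424 in PARP1CKO, and 461 and 422 CPM in PARP2 WT against 531 and 458 in PARP2CKO. The highest value was that of a PARP2CKO library. The other PARP2CKO library was below a PARP2 WT library, and the groups overlapped in each comparison. Replicate 1 was above replicate 2 in every group, and within each replicate number PARP2CKO was above PARP2 WT. PARP1CKO was below PARP1 WT for replicate 1 and above it for replicate 2. No label says whether the replicates are paired. The fold change in PARP2CKO against PARP2 WT was 1.12, with a 95% confidence interval of 0.977 to 1.29 and an adjusted p of 0.954 in edgeR's quasi-likelihood test. In PARP1CKO against PARP1 WT it was 1.02 (0.884 to 1.17, adjusted p = 0.944, the same test). The difference between the 2 effects was 0.14 on the log2 scale, with an interval of -0.14 to 0.42. On leaving out 1 library, this difference ran from 0.03 to 0.25. The PARP2CKO log2 fold change, 0.17 with all libraries, ran from 0.05 to 0.27. With replicate number as a block it was 0.16 (adjusted p = 0.908, quasi-likelihood test). Ulk4 overlaps 759 exon bases of Ctnnb1 on the opposite strand, but it had at most 21 counts in any library.

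In the destruction complex, Gsk3b, Apc and Axin1 had some of the steadiest levels of the 10 genes, unlike the scaffold Axin2. Gsk3b (chromosome 16, 38089001 to 38246084), the kinase that phosphorylates β-catenin, had 118 and 124 CPM in PARP1 WT against 123 and 122 in PARP1CKO, and 122 and 121 CPM in PARP2 WT against 119.7 and 124 in PARP2CKO. Apc (chromosome 18, 34220924 to 34322552), the scaffold whose loss stabilises β-catenin in colon tumours, lay between 92.0 and 98.6 CPM in all libraries. Axin1 (chromosome 17, 26138688 to 26195811), the scaffold that limits the amount of the complex, had 64.9 and 64.6 CPM in PARP1 WT against 61.3 and 63.0 in PARP1CKO, and 62.8 and 60.9 CPM in PARP2 WT against 61.7 and 62.1 in PARP2CKO. Both PARP1 WT libraries were above all 6 others for Axin1, by little. The fold change of Axin1 was 0.96 in PARP1CKO against PARP1 WT (interval 0.904 to 1.02, adjusted p = 0.583, quasi-likelihood test) and 1.0 in PARP2CKO against PARP2 WT (0.943 to 1.06). For Gsk3b and Apc the libraries of a deletion overlapped those of its WT group, and the intervals lay between 0.938 and 1.08 and between 0.931 and 1.09 over both deletions.

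Axin2 (chromosome 11, 108920349 to 108950783), the scaffold that is itself a target of β-catenin, was barely detected. It had 5 and 10 counts in PARP1 WT against 4 and 12 in PARP1CKO, and 9 and 8 counts in PARP2 WT against 5 and 7 in PARP2CKO. Both PARP2CKO libraries were below both PARP2 WT libraries in CPM, at 0.0838 and 0.145 against 0.156 and 0.154. With 12 against 17 counts, the ratio was 0.718 with a 95% interval of 0.313 to 1.6, which covers counting error only. The quasi-likelihood fit gave a fold change of 0.726 with a wider interval of 0.273 to 1.93 (adjusted p = 0.977, quasi-likelihood test). A change of Axin2 within that wider interval was not detectable at this depth. Gm11670 overlaps 209 exon bases of Axin2 on the opposite strand and was not analysed here.

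Lrp6 (chromosome 6, 134446476 to 134566965), the co-receptor of Wnt ligands, had 99.3 and 102 CPM in PARP1 WT and 108 and 113 in PARP1CKO. In the PARP2 line it had 103 CPM in both PARP2 WT libraries, against 101 and 97.4 in PARP2CKO. The PARP1CKO libraries were thus the 2 highest and did not overlap PARP1 WT, and the PARP2CKO libraries were below PARP2 WT. The log2 fold change was 0.13 ± 0.0426 (SE) in PARP1CKO against PARP1 WT, with an interval of 0.03 to 0.22, an unadjusted p of 0.0157 and an adjusted p of 0.335 in the quasi-likelihood test. In PARP2CKO against PARP2 WT it was -0.05 ± 0.0423 (adjusted p = 0.958). The test of the difference between these effects gave -0.18 ± 0.06, with an interval of -0.31 to -0.04, an unadjusted p of 0.0166 and an adjusted p of 0.585 (quasi-likelihood test), so neither passed over all genes tested.

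Tcf7l2 (chromosome 19, 55741820 to 55933654), a DNA-binding partner of β-catenin, had 10.6 and 12.7 CPM in PARP1 WT against 13.1 and 10.2 in PARP1CKO, and 13.5 and 13.3 CPM in PARP2 WT against 13.5 and 14.5 in PARP2CKO. All 4 libraries of the PARP2 line were above all 4 of the PARP1 line, though 13.3 against 13.1 CPM separated the nearest. The fold change was 1.15 in PARP2 WT against PARP1 WT, with an interval of 0.943 to 1.39 and an adjusted p of 0.442 (quasi-likelihood test). Within the lines it was 0.998 (0.819 to 1.22) in PARP1CKO and 1.04 (0.861 to 1.26) in PARP2CKO. Bcl9 (chromosome 3, 97203662 to 97297917), which bridges β-catenin to further co-activators, lay between 21.2 and 25.7 CPM in all libraries. Its fold change was 1.07 (0.943 to 1.21) in PARP1CKO and 0.951 (0.841 to 1.07) in PARP2CKO. In the PARP2 line both PARP2CKO libraries of Bcl9, at 22.8 and 23.2 CPM, were below both PARP2 WT libraries, at 24.6 and 23.9.

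Tcf7l1 (chromosome 6, 72626378 to 72789254), a TCF factor that often represses target genes, had 4 and 7 counts in PARP1 WT against 3 and 5 in PARP1CKO, and 7 and 6 counts in PARP2 WT against 7 and 6 in PARP2CKO. The groups overlapped. The ratio of PARP2CKO to PARP2 WT was 1.02 with a counting interval of 0.435 to 2.38. Gm15401, with at most 4 counts in any library, overlaps 179 exon bases of Tcf7l1 on the opposite strand, so these low counts are uncertain.

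**Figure D2:**
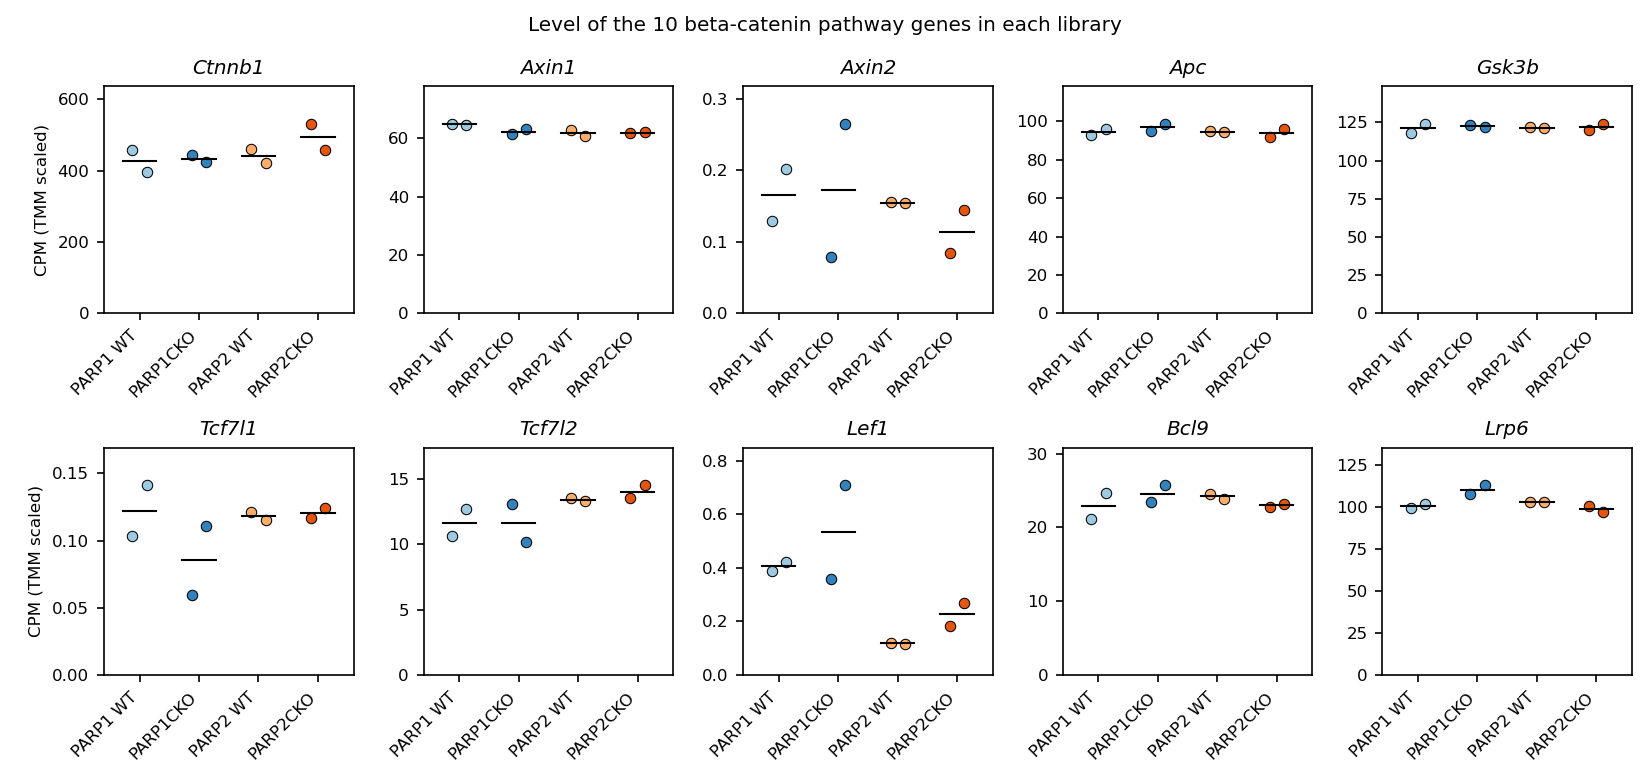
CPM of the 10 genes in each of the 8 libraries, with a point for each library, a line for each group mean and linear axes that start at 0. Gsk3b, Apc and Axin1 are nearly level, the 2 PARP2CKO points of Ctnnb1 lie at 531 and 458 CPM, and Lef1 is lower in the PARP2 line.

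No tested gene of the 9 passed an adjusted p of 0.05 after either deletion, in the quasi-likelihood test of edgeR, adjusted by the Benjamini-Hochberg method over all 13197 genes. In PARP1CKO against PARP1 WT the test called 0 of 9 genes, where 0.106% of all genes were called. At an unadjusted p under 0.05 it found 1 of 9, Lrp6, against 11.3% of all genes. DESeq2 called 0 of 9, against 0.754% of the genes to which it gave an adjusted p, and edgeR's likelihood-ratio test called 0 of 9 against 1.11%. In PARP2CKO against PARP2 WT the quasi-likelihood test called 0 of 9, against 0.053% of all genes, and 0 of 9 had an unadjusted p under 0.05, against 4.83%. DESeq2 called 0 of 9 against 0.205%, and the likelihood-ratio test 0 of 9 against 0.296%. For the difference between the effects the quasi-likelihood test called 0 of 9 against 0.0152%, DESeq2 0 of 9 against 0.362% and the likelihood-ratio test 0 of 9 against 0.546%, and 1 of 9, Lrp6 again, had an unadjusted p under 0.05, against 7.69%. DESeq2 gave Axin2 and Lef1 no adjusted p in the PARP1CKO comparison and in the difference. With so few genes called among all genes, a count of 0 of 9 is close to the background.

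The median size of the changes was close to or below that over all genes tested after each deletion, and above it for the difference between the effects. The median log2 fold change of the 9 genes was 0.02 in PARP1CKO and 0.00 in PARP2CKO, beside 0.01 and 0.00 over all genes tested. Without regard to sign, the median was 0.0325 in PARP1CKO against 0.0787 over all genes, and 0.0582 in PARP2CKO against 0.0579. For the difference between the effects it was 0.143 against 0.0953. For the 7 genes with at least 1 CPM on average, all 95% intervals of the fold change lay between 0.819 and 1.22 in PARP1CKO and between 0.841 and 1.29 in PARP2CKO. The coefficient of variation of these 7 genes over the 8 libraries ran from 1.69% for Gsk3b to 11.8% for Tcf7l2, with a median of 4.7%, beside a median of 4.78% over the 7860 genes tested with mean levels in the same range. A p-value above the threshold does not show that levels were equal, and for Lef1 and Axin2 the intervals were much wider. The 2 libraries of a deletion did not overlap the 2 WT libraries for 2 of 9 genes in PARP1CKO (Axin1 lower, Lrp6 higher), against 41.2% of all genes tested. They did not overlap for 4 of 9 in PARP2CKO (Axin2, Bcl9 and Lrp6 lower, Lef1 higher), against 37.2%. With 2 libraries against 2, an exact two-sided permutation test of 1 gene cannot give a p below 0.333.

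**Figure D3:**
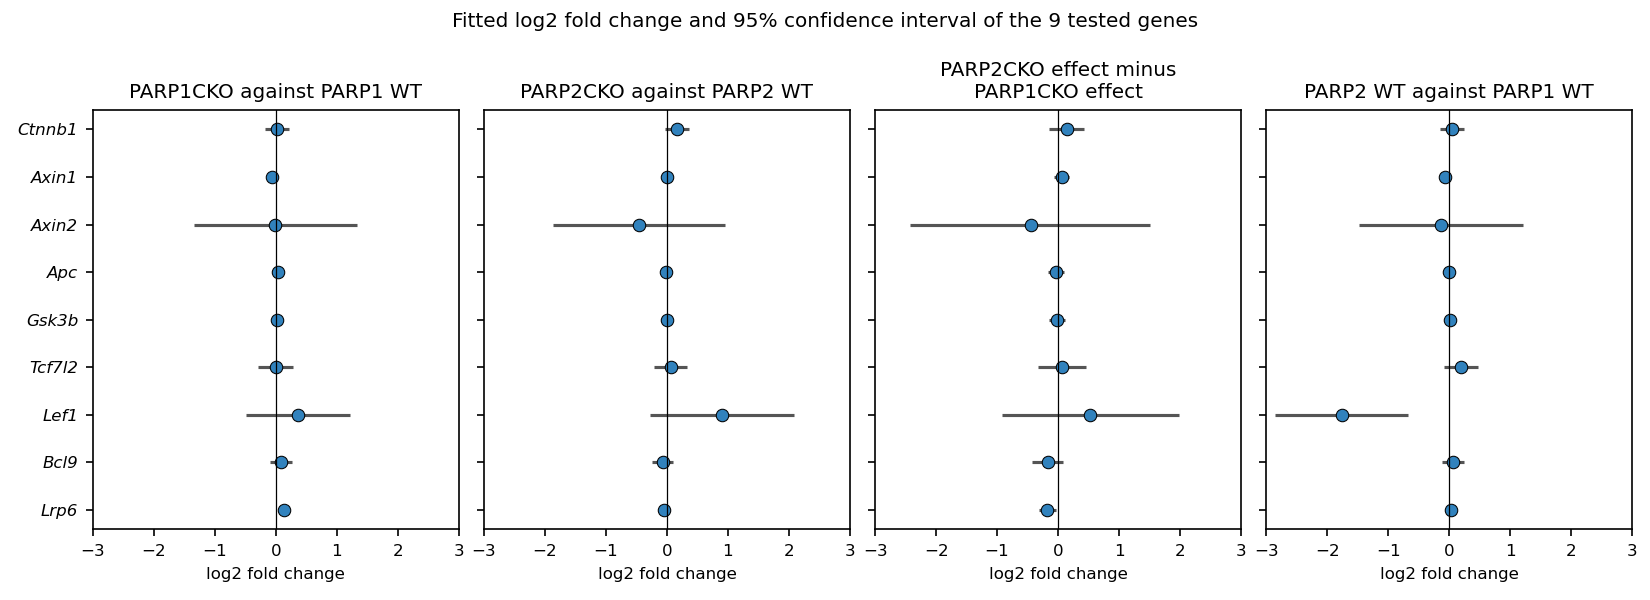
Fitted log2 fold change of the 9 tested genes with 95% confidence intervals from edgeR's quasi-likelihood fit, for the 2 deletions, the difference between them and the 2 WT groups. Intervals are narrow for the 7 abundant genes and wide for Axin2 and Lef1, and the interval of Lef1 between the WT groups runs from -2.85 to -0.67.

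Lef1 (chromosome 3, 131110471 to 131224356), the factor of lymphoid precursors in bone marrow, varied most among the 10 genes, with a coefficient of variation of 61.2% over the 8 libraries. It had 15 and 21 counts in PARP1 WT against 18 and 32 in PARP1CKO, and 7 and 6 counts in PARP2 WT against 11 and 13 in PARP2CKO. In CPM this was 0.388 and 0.423, 0.357 and 0.708, 0.121 and 0.115, and 0.184 and 0.269 in the same order. All 4 libraries of the PARP2 line were below all 4 of the PARP1 line, and within the PARP2 line both PARP2CKO libraries were above both PARP2 WT libraries. In bulk RNA, fewer cells that express a gene and less RNA of it per cell cannot be told apart.

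In PARP2 WT against PARP1 WT the log2 fold change of Lef1 was -1.76 ± 0.48 (SE), with an interval of -2.85 to -0.67. The unadjusted p was 0.00527 and the adjusted p 0.0958 in the quasi-likelihood test. The likelihood-ratio test gave an adjusted p of 0.0114, the quasi-likelihood test without a filter on low counts gave 0.0498, and DESeq2 gave none. Over the 4 libraries of each line there were 37 against 86 counts, a ratio of 0.363 after scaling, with a counting interval of 0.24 to 0.54. In PARP2CKO against PARP2 WT the log2 fold change was 0.90 with an interval of -0.28 to 2.08 (adjusted p = 0.954, quasi-likelihood test), and in PARP1CKO against PARP1 WT it was 0.37 with an interval of -0.49 to 1.22 (adjusted p = 0.738). Gm43352 overlaps 1208 exon bases of Lef1 on the opposite strand and was not analysed here, so reads of either could be counted together if the counting did not use the strand.

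Between the 2 WT groups, which differ in the floxed locus, the mice and the cultures, these sources cannot be told apart. The quasi-likelihood test called 0 of 9 genes against 3.16% of all genes, and 1 of 9, Lef1, had an unadjusted p under 0.05, against 18.9%. DESeq2 called 0 of 9 against 4.43%, with no adjusted p for Lef1 and Axin2, and the likelihood-ratio test called 1 of 9, Lef1, against 6.9%. The 2 WT groups did not overlap for 4 of 9 genes (Tcf7l2 and Lrp6 higher in PARP2 WT, Axin1 and Lef1 lower), against 51.9% of all genes. The 4 libraries of one line did not overlap the 4 of the other for 2 of 9, Tcf7l2 and Lef1, against 20.4%.

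Markers of B cells moved with Lef1 between the lines. Of 8 B cell markers, 7 were tested and all 7 passed in PARP2 WT against PARP1 WT, 6 of them lower. Cd79a, a chain of the B cell receptor, had 9.0 CPM in PARP1 WT, 10.8 in PARP1CKO, 2.59 in PARP2 WT and 2.4 in PARP2CKO (adjusted p = 0.00529 between the WT groups, quasi-likelihood test). Pax5, the factor that fixes B cell identity, had 46 to 71 counts in libraries of the PARP1 line and 9 to 18 in those of the PARP2 line. For each of the 6 lower markers all 4 libraries of the PARP2 line were below all 4 of the PARP1 line, as they were for Lef1. The lines separated in this way, in either direction, for 20.4% of all genes tested. The other tested marker, Blnk, which myeloid cells also express, was higher, at 86.2 CPM in PARP1 WT and 112 in PARP2 WT.

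The summed level of the 8 markers, most of it Blnk, was 112 to 131 CPM in the libraries of the PARP1 line and 118 to 138 in those of the PARP2 line. Without Blnk, left out after its values were seen, the sum was 24.8 to 35.4 CPM in the PARP1 line and 7.12 to 9.73 in the PARP2 line. PARP1CKO replicate 2 had both the highest sum and the highest Lef1, while in the PARP2 line the sum was 8.84 CPM on average in PARP2 WT and 8.43 in PARP2CKO, where Lef1 had 0.118 and 0.227 CPM. None of the B cell markers passed in either deletion. All 7 markers of basophils and mast cells also lay lower in every library of the PARP2 line, with sums of 8.93 to 16.7 CPM against 23.4 to 32.0, and 0 of them passed between the WT groups. Of all genes tested, 20.4% lay lower or higher in every library of the PARP2 line. Of the 8 erythroid markers, 4 lay lower in every library of the PARP2 line, with sums over the 8 of 3.87 to 4.17 CPM against 7.25 to 12.5. The 2 that passed between the WT groups were the α-globin genes Hba-a1 and Hba-a2, which have identical counts in the table and are near-identical copies (log2 fold change -1.31, adjusted p = 0.0126, quasi-likelihood test). Of the 6 progenitor markers, Kit, the receptor of stem cell factor, was lower in every library of the PARP2 line (log2 fold change -0.70, adjusted p = 0.00429 between the WT groups, the same test), and Elane and Prtn3 passed in the other direction. Of the other lists, the neutrophil markers Retnlg (log2 fold change -0.79, adjusted p = 0.00924) and Mmp9 (-0.63, adjusted p = 0.0112) passed lower in the same test. The macrophage marker Mertk (0.76, adjusted p = 0.00529) and the myeloid markers Lyz2 (0.76, adjusted p = 0.0117) and Cebpa (0.51, adjusted p = 0.0383) passed higher. None of the 5 tested markers of T and NK cells passed between the WT groups. Their list summed to 203 to 260.4 CPM in 7 libraries and 168 in PARP1CKO replicate 2, most of it Il7r, the receptor of interleukin 7, with 7277 to 15288 counts. The defining T cell markers Cd3d, Cd3e and Cd3g had 0 to 6 counts in any library, while Lck had 25 to 40, Cd4 69 to 129 and Nkg7 83 to 140. Cd8a, a chain of the CD8 co-receptor, had 9 to 19 counts in the PARP1 line and 7 to 12 in the PARP2 line, and was the only 1 of the 11 in the table to lie lower in CPM in every library of the PARP2 line (log2 fold change -0.18, adjusted p = 0.858 between the WT groups, quasi-likelihood test). The part of these cells in the level of Lef1 was not tested.

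**Figure D4:**
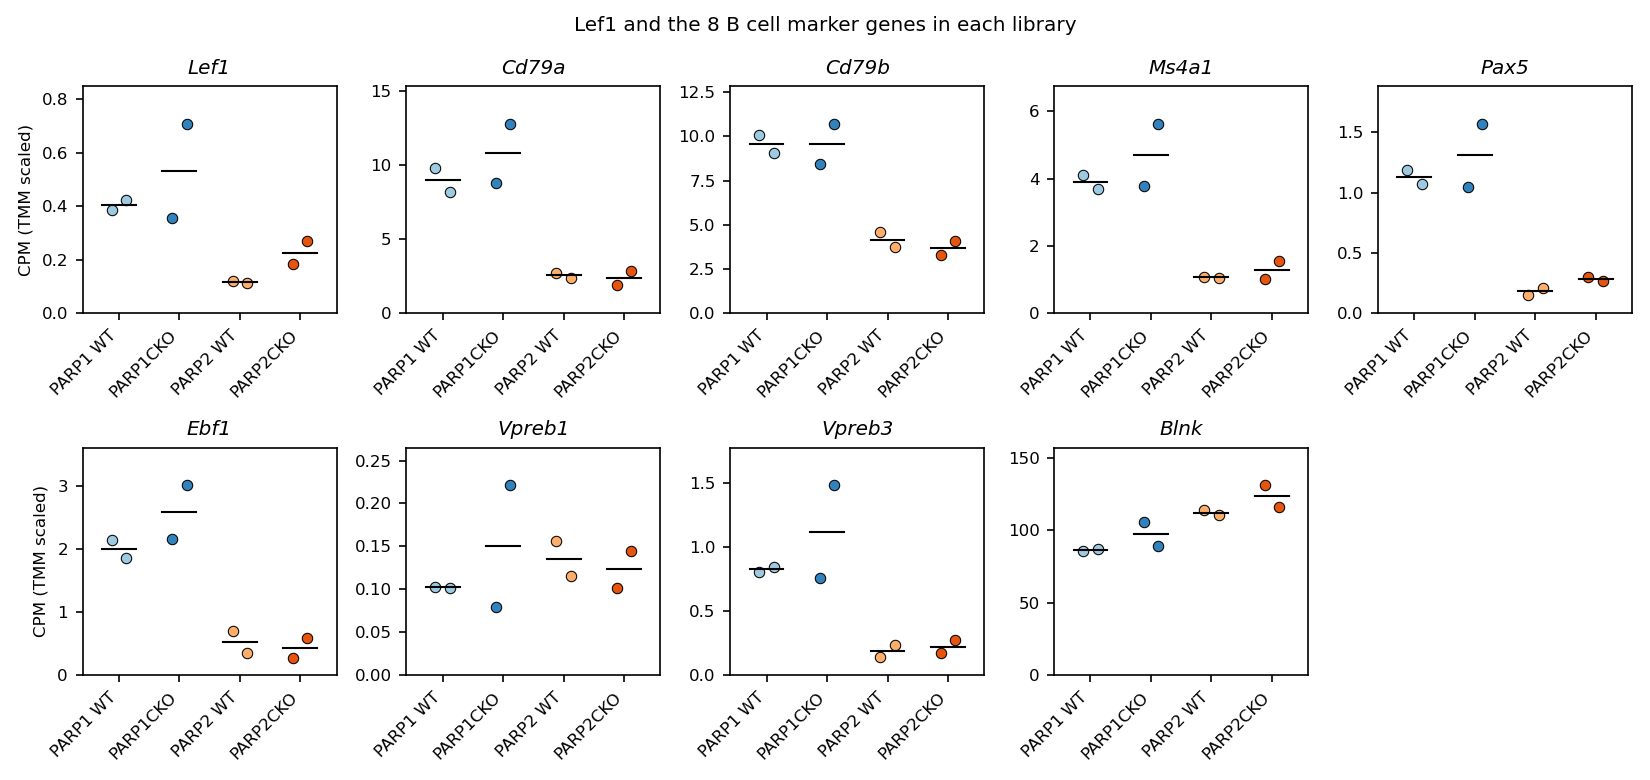
CPM of Lef1 and of the 8 B cell markers in each library, with a point for each library, a line for each group mean and linear axes that start at 0. Lef1 and 6 of the markers are lower in all 4 libraries of the PARP2 line, Blnk is higher there, and Vpreb1, at 4 to 10 counts, overlaps.

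Around the 10 genes, 125 further genes of the pathway were grouped by role, and 79 of them were tested. None passed in PARP1CKO, where 18 of 79 (22.8%, 10 higher and 8 lower) had an unadjusted p under 0.05 in the quasi-likelihood test, beside the 11.3% of all genes. None passed in PARP2CKO, where 5 of 79 (6.33%) did so, beside 4.83%, nor in the difference, where 9 of 79 (11.4%) did so, beside 7.69%. DESeq2 and the likelihood-ratio test also called 0 of 79 in these 3 comparisons. DESeq2 did not give an adjusted p to all 79, with none in PARP1CKO for Porcn, Wnt9a, Apcdd1 and Tcf7, for example. The median log2 fold change of the 79 genes was 0.03 in PARP1CKO and 0.01 in PARP2CKO.

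Wnt ligands were nearly absent. Of the 25 genes for ligands, R-spondins and their secretion, 16 had at most 3 counts in every library, among them 9 with none, and 5 were tested. Only Wls, the carrier that takes Wnt proteins to the cell surface, was above 1 CPM, at 105 to 113 CPM in all libraries. Porcn, the enzyme that adds the lipid of Wnt proteins, had 0.785 CPM on average. Wnt9a, the ligand with the highest level, had 26 and 30 counts in PARP1 WT against 37 and 30 in PARP1CKO, and 27 and 17 counts in PARP2 WT against 42 and 39 in PARP2CKO. Both PARP2CKO libraries of Wnt9a were above both PARP2 WT libraries, in a comparison where 37.2% of all genes tested did not overlap. The log2 fold change was 0.91 (interval 0.32 to 1.50, unadjusted p = 0.0071, adjusted p = 0.84, quasi-likelihood test). PARP2 WT had the lowest group mean, 0.397 CPM, against 0.638 in PARP1 WT, 0.698 in PARP1CKO and 0.756 in PARP2CKO.

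Among receptors and Dishevelled genes, 16 of 21 were tested, Lrp6 included. Lrp5, the second Wnt co-receptor, had 47.2, 53.2, 45.4 and 49.0 CPM on average in PARP1 WT, PARP1CKO, PARP2 WT and PARP2CKO, with log2 fold changes of 0.17 (adjusted p = 0.304) and 0.11 (adjusted p = 0.954) after the 2 deletions in the quasi-likelihood test. Csnk1g2, a membrane-bound casein kinase that phosphorylates Lrp6, lay between 80.3 and 93.1 CPM. The Frizzled receptor Fzd1 had 1.68 and 2.02 CPM in PARP1 WT against 1.27 and 1.19 in PARP1CKO, and 3.46 and 4.32 CPM in PARP2 WT against 4.21 and 3.52 in PARP2CKO. Fzd1 was higher in all 4 libraries of the PARP2 line, and it passed between the WT groups with a log2 fold change of 1.06 ± 0.177 (SE, adjusted p = 0.0174, quasi-likelihood test). It lost that call without PARP1 WT replicate 1 or without PARP2 WT replicate 2. After the deletions its log2 fold change was -0.59 in PARP1CKO (adjusted p = 0.337) and 0.00 in PARP2CKO (adjusted p = 0.998). Genes on the list of secreted and membrane inhibitors were scarce, with 9 of 18 at no more than 3 counts in every library. The most abundant, the Dickkopf receptor Kremen1, had 18.3 CPM. Znrf3, a ubiquitin ligase that removes Frizzled receptors from the membrane, had 6.25 CPM on average and Apcdd1, a membrane inhibitor of Wnt signalling, 0.761, and neither passed in any comparison.

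All 14 genes of the destruction complex list were tested, and 0 passed in any comparison. Csnk1a1, the kinase that primes β-catenin for Gsk3b, lay between 154 and 164 CPM. Ppp2r5a, a regulatory subunit of the phosphatase PP2A, had 138 and 138 CPM in PARP1 WT against 121 and 72.8 in PARP1CKO, and 133 and 129.9 CPM in PARP2 WT against 129 and 125 in PARP2CKO. The value of PARP1CKO replicate 2 stood below the other 7, and the log2 fold change in PARP1CKO was -0.51 (interval -0.91 to -0.11, adjusted p = 0.354, quasi-likelihood test). Without PARP1CKO replicate 1, so that replicate 2 alone stood for its group, the log2 fold change was -0.92 with an adjusted p of 0.000375. The tankyrases, PARP family members that mark axin for degradation, showed no call: Tnks2 lay between 142 and 155 CPM and Tnks between 72.6 and 80.6, while Usp34, a deubiquitinase that acts on axin, lay between 135 and 143.

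In the nucleus, Tcf7, the remaining TCF/LEF factor, had 18 to 34 counts per library and did not pass in any comparison. Of the nuclear co-activators 11 of 12 were tested and of the repressors 10 of 11, and 0 passed in the quasi-likelihood test. The Groucho corepressor Tle2, named after its values were seen, had a log2 fold change of 0.52 in PARP2 WT against PARP1 WT, which passed in the likelihood-ratio test (adjusted p = 0.0202) and without a filter on low counts (adjusted p = 0.0381). The chromatin remodeller Smarca4 had 228 to 252 CPM, the acetyltransferase Ep300 159 to 179 and the mediator subunit Med12 111 to 122. The corepressor Ctbp1 had 132 to 153 CPM and the remodeller Chd8, which binds β-catenin, 142 to 153. Aes, a short Groucho protein, had 205 and 235 CPM in PARP1 WT and 269.9 and 245 in PARP1CKO, a log2 fold change of 0.23 with an unadjusted p of 0.0165 and an adjusted p of 0.335 (quasi-likelihood test). Among the catenins that link β-catenin or cadherins at the membrane, Ctnna1 had 261 to 272 CPM and Ctnnd1 182 to 204.

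Of 26 genes often used as β-catenin targets, 18 were tested, with a median log2 fold change of -0.03 in PARP1CKO and 0.02 in PARP2CKO, and 0 passed after either deletion. Ccnd1, which encodes cyclin D1, was the most abundant. It had 679 and 727 CPM in PARP1 WT against 755 and 629 in PARP1CKO, and 643 and 661 CPM in PARP2 WT against 657 and 724 in PARP2CKO. The groups overlapped within each line, and the log2 fold change in PARP2CKO was 0.08 with an interval of -0.11 to 0.27 (adjusted p = 0.968, quasi-likelihood test). Cd44, an adhesion receptor, lay between 407 and 498 CPM. Id2, an inhibitor of helix-loop-helix factors, had 302 and 276 CPM in PARP1 WT against 260 and 264 in PARP1CKO, and 238 and 237 CPM in PARP2 WT against 242 and 260.3 in PARP2CKO. It was lower in PARP2 WT than in PARP1 WT, with a log2 fold change of -0.28 ± 0.0539 (SE, adjusted p = 0.029, quasi-likelihood test). It lost that call without PARP1 WT replicate 1, PARP2 WT replicate 1 or PARP2 WT replicate 2, and with replicate number as a block (adjusted p = 0.0514). Between the WT groups, Fzd1 and Id2 were the 2 of 79 further genes that passed, and 13 of 79 (16.5%) had an unadjusted p under 0.05, beside 18.9% of all genes. These 2 are 2.53% of the 79, beside 3.16% of all genes. DESeq2 called 3 there (also Fzd7), 3.8% of the 79, beside 4.43% of the genes to which it gave an adjusted p. The likelihood-ratio test called 6 (also Fzd7, Tle2, Lgr4 and Tnfrsf19), 7.59% beside 6.9%, so the shares called were close to the background. The R-spondin receptor Lgr4 had a log2 fold change of 0.79, which passed in the likelihood-ratio test (adjusted p = 0.0223) and with no filter for low counts (adjusted p = 0.0345). Tnfrsf19, a receptor of the TNF family with 1 to 12 counts per library, had one of -2.39 (adjusted p = 0.00707, likelihood-ratio test). Of the 18 targets tested, 13 were lower and 5 higher in PARP2 WT than in PARP1 WT. Their median log2 fold change there was -0.15, beside 0.00 over all genes tested. In the quasi-likelihood test 6 of the 18, all lower, had an unadjusted p under 0.05, beside 18.9% of all genes. These were Lef1, Lgr5, Cd44, Id2, Enc1 and Tnfrsf19. Of them, Lef1, Lgr5 and Tnfrsf19 had at most 32, 14 and 12 counts in any library. Only Id2 passed the adjusted threshold in that test, and whether the targets differ as a set was not tested.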

How the data were processed

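Total RNA of 8 libraries was analysed, 2 in each group. The authors' processing notes name FastQC 0.11.2, TopHat2 2.0.12, Picard 1.127 and featureCounts, with the build mm10. The deposited values are raw counts per gene, and the annotation, the strand setting and the use of marked duplicates are not given in the sources used here. CPM were computed from these counts with edgeR 4.0.16 (R 4.3.3) and TMM factors.

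Genes passing filterByExpr (13197 of 24062) were fitted over all 8 libraries with 1 mean per group, and contrasts were tested with the quasi-likelihood test, Benjamini-Hochberg adjustment over all 13197 genes and a threshold of 0.05. The common biological coefficient of variation was 0.055. Replicates differed by more than sampling noise (chi-square per gene 8.56 to 12.9). Scripts were tested on simulated data. Alternatives were other scaling, DESeq2 1.42.0, the likelihood-ratio test, only the libraries of a comparison, other filters, a replicate block and leaving out each library. Lowly covered genes were also compared by summed counts with exact counting intervals, which cover counting error only. Promoter windows came from RefSeq (GRCm38.p6) and gene positions from GENCODE M21 (GRCm38). Figures were drawn with matplotlib 3.10.9.

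The 10 genes, the 10 pathway lists and the 10 marker lists (myeloid and monocyte, neutrophil, macrophage, progenitor, B cell, T and NK cell, stroma and endothelium, basophil and mast cell, erythroid, megakaryocyte) were chosen with earlier results of these data known. Genes named are the 10, Parp1 and Parp2, and from each pathway list the 3 with the highest mean CPM and any gene called in a comparison. Fzd7, Tle2, Lgr4, Lgr5, Enc1, Tnfrsf19 and the single marker genes were named after their values were seen. A further B cell marker is not reported here. Neutrophil markers summed to 2585 to 3301 CPM per library, progenitor markers to 298 to 421, stroma and endothelium to 24.8 to 33.9, erythroid to 3.87 to 12.5 and megakaryocyte to 272 to 381.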

Additional observations from a re-analysis of the deposited data

How the results depend on the processing

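After either deletion, and for the difference between the effects, 0 of the 9 tested genes were called under all alternatives run. Between the WT groups, 1 (Lef1) was called by the likelihood-ratio test and 1 (Lef1) without a filter on low counts, with a log2 fold change of -1.76 in both, and the adjusted p of Lef1 ran from 0.0114 to 0.306 over its alternatives. Of 451 values of the 36 log2 fold changes under an alternative, 373 kept their sign and their side of the threshold, 5 kept their sign but had no adjusted p (DESeq2), 50 kept their side where the reported value or the alternative was 0.00, which has no direction, 2 newly passed the threshold (Lef1), 0 lost a call and 21 changed sign, in 14 fold changes. None of these 14 was called. Leaving out 1 library, the PARP1CKO log2 fold change ran from -0.08 to 0.13 for Ctnnb1, -1.07 to 0.64 for Axin2, -0.02 to 0.05 for Gsk3b, -0.19 to 0.79 for Lef1 and -0.01 to 0.21 for Bcl9, and that of Apc in PARP2CKO from -0.04 to 0.02. The difference between the effects ran from -1.11 to 0.61 for Axin2, -0.05 to 0.02 for Gsk3b and -0.11 to 0.26 for Tcf7l2. Between the WT groups the values ran from -0.06 to 0.16 for Ctnnb1, -0.38 to 0.25 for Axin2, -0.02 to 0.05 for Gsk3b and -0.03 to 0.19 for Bcl9. Axin2 in PARP1CKO was 0.04 with DESeq2 and 0.03 with the replicate block, and with library size alone Gsk3b and Lrp6 between the WT groups were -0.02 and -0.01. The cause was not tested. Of the 79 further genes, the number called on leaving out 1 library ran from 0 to 1 in PARP1CKO and in the difference (Ppp2r5a, without PARP1CKO replicate 1) and from 0 to 3 between the WT groups, where it was 6 with the likelihood-ratio test, 5 without a filter and 1 (Fzd1) with the replicate block. Libraries with the same replicate number did not deviate together in all pairs of groups (correlations of -0.176 to 0.175 over genes). These correlations cannot tell whether the number marks a pairing or a batch, and no label says so. The block changed no call of the 9 genes. A library left alone in its group was assumed to vary like the other groups. A minimum of 1 CPM in 2 libraries left no value for Axin2 and Lef1, and the difference between the effects, which needs all 4 groups, has no fit to fewer groups. Depth limits Lef1, Axin2 and Tcf7l1, with 3 to 32 counts per library. With 2 libraries per group, changes smaller than the intervals given could not be detected, and protein levels were not measured.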
